A study of Mus musculus with 16 samples.

Results

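NRF2 antioxidant and metallothionein genes were followed in sorted myeloid cells of the mouse brain and spleen. The set has 10 members: Nfe2l2, Nqo1, Gclm, Gclc, Txnrd1, Srxn1, Prdx1, Sod2, Mt1 and Mt2. They were matched by symbol to 10 of the 50600 genes in the count table, and all 10 passed the filter on low counts. NRF2, the protein of Nfe2l2, is a transcription factor that KEAP1 holds in the cytoplasm and hands to a CUL3 ubiquitin ligase. Oxidants and electrophiles modify KEAP1, after which NRF2 enters the nucleus, pairs with a small MAF protein and binds antioxidant response elements of enzyme genes, where BACH1 competes with it. Because that step acts on the protein, Nfe2l2 transcript levels do not measure NRF2 activity. Metallothioneins are small cysteine-rich proteins that bind zinc and copper, and their genes answer to zinc through MTF1 and to glucocorticoids. In the brain after stroke, reperfusion and phagocytosis expose microglia and entering leukocytes to oxidants and free metal.

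The study set infiltrating CD11c cells against microglia to find genes that separate the populations. The first group held CD11c-eYFP+ cells of the ipsilateral ischemic hemisphere of Tg(Itgax-Venus)1Mnz mice, in which the promoter of Itgax, the CD11c gene, drives a yellow fluorescent protein. The second held CX3CR1+ microglia of the ipsilateral ischemic hemisphere of CX3CR1CreERT2:Rosa26-tdT mice, in which Cre under the Cx3cr1 promoter switches on tdTomato. The third held CD11c-eYFP+ spleen cells of the Tg(Itgax-Venus)1Mnz line, and the last held CX3CR1+ microglia of control CX3CR1CreERT2:Rosa26-tdT brain. Each group had 4 libraries, and all mice were males of 13 to 14 weeks. The CD11c groups and the microglia groups thus differ in mouse line and reporter as well as in cell type. The labels do not say whether each library came from a separate mouse, so p-values measure the spread between libraries, which may be partly technical. Neither the interval between ischemia and sorting, nor the tamoxifen schedule, nor whether spleen donors had a stroke is stated in the labels.

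Libraries held 31.57 to 48.25 counted reads in units of 1e6. Levels are counts per 1e6 reads (CPM) scaled by edgeR's TMM factors. Brain CD11c cells carried both dendritic cell and microglia markers: 8 dendritic cell markers summed to 880 to 2010 CPM in brain CD11c cells, 53.1 to 113 CPM in ischemic microglia, 701 to 1470 CPM in spleen CD11c cells and 60.2 to 82.6 CPM in control microglia. This list includes Itgax, whose promoter drives the reporter used to sort the CD11c groups. A high Itgax level in those groups was therefore favoured by the sort itself. The 8 microglia markers summed to 7740 to 8930 CPM in brain CD11c cells, 18300 to 25700 CPM in ischemic microglia, 197 to 280 CPM in spleen CD11c cells and 25800 to 31000 CPM in control microglia. Spleen libraries also held B cell markers (8 of 8 detected, 2960 to 3690 CPM summed) and red pulp macrophage markers (6 of 6, 3670 to 5360 CPM), while B cell markers summed to 12.3 to 21.7 CPM in the libraries of the other groups. In such bulk libraries, fewer cells that carry a transcript and less of it per cell cannot be told apart. Brain CD11c replicates 1 and 2 have titles of another form than replicates 3 and 4 and differ from them in several members. For some members, results with a pair alone are therefore given as well.

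Antioxidant response elements share a short core, and the promoter sequences of the members are shown to place that core. In RefSeq promoter windows (GRCm38.p6, 250 bases before each annotated start), 9 of the 10 members had a window and 11 windows were read, 3 of them for Txnrd1. The core was searched on both strands as TGACNNNGC or TGAGNNNGC, and 6 of the 9 members held it, in 7 matches. Each of these members held it in 1 window, so 6 of the 11 windows had a match. At least 1 match occurs in 23.0% of 32851 such windows of all genes, and 2 or more in 3.18%. Each stretch reads 5′ to 3′ on the strand of the match, with the match in capitals and up to 25 bases on each side; the stretch of Nfe2l2 stops at the edge of its window.
Nfe2l2, chr2:75704870-75704913, minus strand: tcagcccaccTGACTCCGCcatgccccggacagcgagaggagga
Gclm, chr3:122245398-122245456, minus strand: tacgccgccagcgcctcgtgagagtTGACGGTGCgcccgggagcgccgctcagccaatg
Txnrd1 start 2, chr10:82859089-82859147, minus strand: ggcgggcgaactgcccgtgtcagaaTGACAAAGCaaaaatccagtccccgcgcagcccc
Srxn1 near match, chr2:152105454-152105512, plus strand: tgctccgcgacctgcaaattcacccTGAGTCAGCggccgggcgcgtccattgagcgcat
Srxn1 far match, chr2:152105341-152105399, minus strand: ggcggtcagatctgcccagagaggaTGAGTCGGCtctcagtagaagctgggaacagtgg
Prdx1, chr4:116685441-116685499, minus strand: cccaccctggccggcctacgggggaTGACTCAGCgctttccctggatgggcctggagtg
Mt2, chr8:94172514-94172572, plus strand: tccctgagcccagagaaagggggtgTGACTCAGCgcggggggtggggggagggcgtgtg

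Srxn1 was the member with 2 matches, 45 to 37 and 158 to 150 bases before its start. The match of Nfe2l2 lay 240 to 232 bases before the start, that of Gclm 134 to 126, that of Txnrd1 92 to 84, that of Prdx1 133 to 125 and that of Mt2 79 to 71. The Gclm match overlaps a match to the core of the metal response element, searched on both strands as TGCACNC or TGCGCNC. That core had 3 matches in the window of Mt2, where 1.26% of all windows hold as many, 2 in Gclm and 1 each in Srxn1 and Mt1; 21.4% of all windows hold at least 1. GENCODE M21 also starts transcripts of Mt2 242 bases and of Mt1 152 bases downstream of the RefSeq start, so these windows do not cover every annotated start. These are matches of letters, not measured binding.

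Against ischemic microglia, brain CD11c cells had higher Prdx1, Txnrd1 and Nqo1 and lower Gclc, while Nfe2l2 itself, Gclm, Srxn1, Sod2, Mt1 and Mt2 did not pass the test. Thus 3 of the 10 members were higher and 1 was lower; over all genes tested 38.8% were called, 19.7% higher and 19.1% lower. The count called, 4 of 10, is close to that background. The median log2 fold change was 0.53 over the members and 0 over all genes. The groups did not overlap for 2 members, Nqo1 and Gclc, against 31.4% of all genes. The calls for Nqo1 and Txnrd1 lay next to the threshold of 0.05 and were lost with DESeq2's size factors (edgeR adjusted p = 0.0522 and 0.0516) or without the filter on low counts (edgeR adjusted p = 0.0857 and 0.14). With library totals in place of TMM, 6 members were higher and 0 lower, and with brain CD11c replicates 3 and 4 alone 1 was higher.

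Microglia of the ischemic hemisphere had more Nfe2l2, Txnrd1, Srxn1, Prdx1, Sod2, Mt1 and Mt2 than control microglia, and less Gclc. Nqo1 and Gclm did not pass. Thus 7 of the 10 members were higher and 1 was lower, while 35.7% of all genes were called, 17.7% higher and 18.0% lower. The median log2 fold change was 1.02 over the members and -0.05 over all genes. For 9 members the groups did not overlap, 7 with ischemic microglia above control microglia and 2 below, against 43.3% of all genes. The calls for Mt1, Mt2 and Gclc lay near the threshold: without ischemic microglia replicate 2 the edgeR adjusted p was 0.18, 0.171 and 0.0591.

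Brain CD11c cells had more Nfe2l2, Txnrd1, Srxn1, Prdx1, Sod2, Mt1 and Mt2 than spleen CD11c cells, and Nqo1, Gclm and Gclc did not pass. Thus 7 of the 10 members were higher and 0 were lower, while 64.2% of all genes were called, 31.2% higher and 33.0% lower. The median log2 fold change was 1.45 over the members and -0.04 over all genes. The groups did not overlap for 6 members, against 55.2% of all genes. The dissociation protocol in the labels describes brain, and 12 dissociation-induced early genes summed to 4400 to 8890 CPM in brain CD11c cells and 319 to 381 CPM in spleen CD11c cells. Their part in this comparison was not tested. The comparisons share libraries, since brain CD11c cells and ischemic microglia each enter 2 of them.

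Over the 3 further pairs of groups, 7 members were higher and 1 lower in brain CD11c cells than in control microglia, where 58.9% of all genes were called, 29.3% higher and 29.6% lower. In ischemic microglia against spleen CD11c cells 7 were higher and 2 lower, where 68.5% were called, 31.3% higher and 37.2% lower. In spleen CD11c cells against control microglia 2 were higher and 4 lower, where 68.8% were called, 37.1% higher and 31.7% lower. The groups did not overlap for 9 members (48.8% of all genes) in the first of these pairs, 8 members (71.1%) in the next and 5 members (71.0%) in the last. They serve here to order the group levels of each gene.

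**Figure D1:**
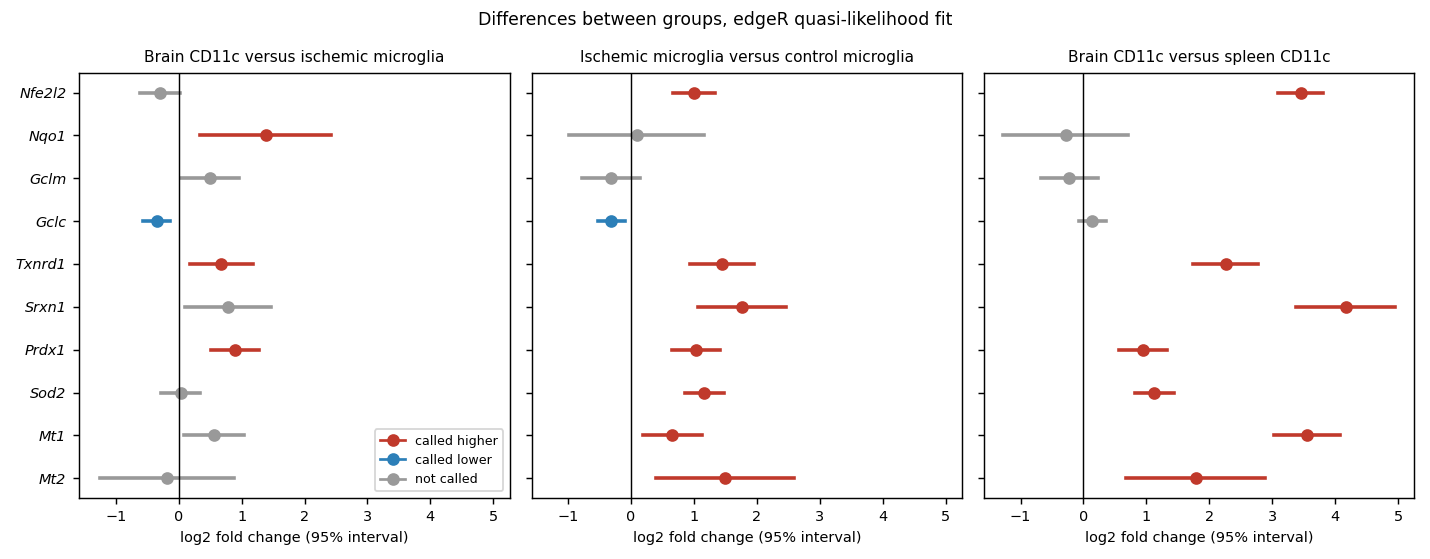
Log2 fold changes of the 10 genes in 3 comparisons, from the edgeR fit on all 16 libraries; points are estimates, lines 95% intervals, and colour marks the call at an adjusted p of 0.05. In ischemic against control microglia 7 genes lie right of 0 in red and Gclc lies left of it in blue.

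Nfe2l2 (ENSMUSG00000015839, chr2:75675513-75704641, minus strand, GRCm38), the gene of NRF2, was abundant in both brain populations. It had 757, 794, 769 and 939 CPM in brain CD11c cells, 876, 935, 911 and 1280 CPM in ischemic microglia, 77.8, 66.4, 68.2 and 85.3 CPM in spleen CD11c cells and 681, 414, 410 and 497 CPM in control microglia. Every brain library was above every spleen library, and every ischemic microglia library was above every control library. Ischemic exceeded control microglia by 1.00 ± 0.17 (log2, SE; edgeR adjusted p = 0.000266), a 2.00-fold difference. Brain exceeded spleen CD11c cells 11.0-fold (log2 3.45 ± 0.18, edgeR adjusted p = 1.2e-10). Brain CD11c cells and ischemic microglia, the neighbours at the top, overlapped and were not called apart (log2 -0.30 ± 0.17, 95% interval -0.62 to 0.03, edgeR adjusted p = 0.171). Both stood above control microglia, brain CD11c cells by 0.70 ± 0.17 (edgeR adjusted p = 0.00166), and spleen CD11c cells were lowest. Per kilobase of annotated exon, Nfe2l2 had the highest mean level of the 10 genes in brain CD11c cells, 215 ± 22.2 CPM per kb, ischemic microglia, 264 ± 49.6, and control microglia, 132 ± 33.4, whereas in spleen CD11c cells, at 19.6 ± 2.32, it was below Prdx1 at 51.0 ± 5.59 (SD, n = 4).

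**Figure D2:**
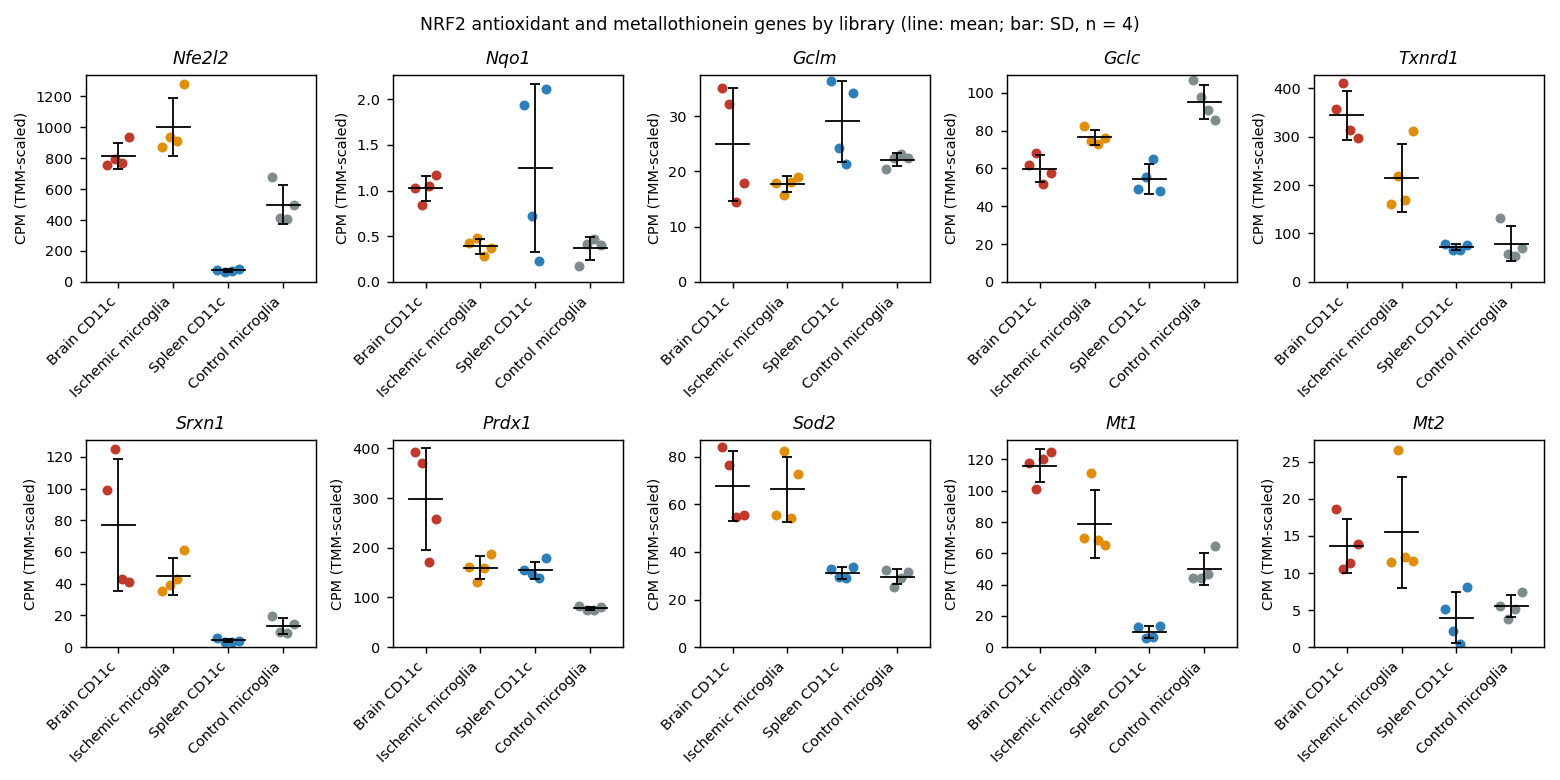
TMM-scaled CPM of each gene in each of 16 libraries, by group; points are libraries, lines means and bars SD (n = 4), each panel with its own axis from 0. Nfe2l2, Srxn1 and Mt1 are low in all 4 spleen libraries, and brain CD11c replicates 1 and 2 stand above 3 and 4 for Gclm, Srxn1 and Prdx1.

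Of the thioredoxin branch, all 3 members were higher in ischemic than in control microglia and in brain than in spleen CD11c cells. Txnrd1 (ENSMUSG00000020250, chr10:82833951-82897712, plus strand) encodes cytosolic thioredoxin reductase, which passes electrons from NADPH to thioredoxin. It had 357, 410, 313 and 297 CPM in brain CD11c cells, 160, 218, 169 and 312 CPM in ischemic microglia, 78.8, 66.7, 66.6 and 75.4 CPM in spleen CD11c cells and 132, 58.4, 53.3 and 70.8 CPM in control microglia. Ischemic microglia replicate 4 alone reached into the range of brain CD11c cells, and control replicate 1 was the highest of its group. Txnrd1 was 2.73-fold higher in ischemic than in control microglia (log2 1.45 ± 0.26, edgeR adjusted p = 0.000506) and 4.79-fold higher in brain than in spleen CD11c cells (log2 2.26 ± 0.27, edgeR adjusted p = 2.02e-06). The step between the top groups was smaller: brain CD11c cells exceeded ischemic microglia by 0.68 ± 0.26 (edgeR adjusted p = 0.0449), and the call was lost without brain CD11c replicate 1, 2 or 3 (0.0754, 0.104 and 0.055) or ischemic microglia replicate 1, 2 or 3 (0.122, 0.0742 and 0.118). With brain CD11c replicates 1 and 2 alone the step was 0.835 (edgeR adjusted p = 0.0554), and with replicates 3 and 4 alone 0.519 (0.224). Spleen CD11c cells and control microglia, the lowest neighbours, overlapped (log2 -0.13 ± 0.25, edgeR adjusted p = 0.665).

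Srxn1 (ENSMUSG00000032802, chr2:152105516-152111376, plus strand) encodes sulfiredoxin, which restores peroxiredoxins that peroxide has over-oxidised. Its levels were 99.0, 125, 43.3 and 41.1 CPM in brain CD11c cells, 35.2, 39.0, 43.0 and 61.6 CPM in ischemic microglia, 5.998, 3.57, 3.47 and 4.17 CPM in spleen CD11c cells and 19.9, 9.30, 9.19 and 14.4 CPM in control microglia. It had the largest of the members' differences between brain and spleen CD11c cells, 17.9-fold (log2 4.17 ± 0.40, edgeR adjusted p = 2.57e-07), and between ischemic and control microglia, 3.39-fold (log2 1.76 ± 0.36, edgeR adjusted p = 0.00147). All groups were separate except brain CD11c cells and ischemic microglia, where the difference of 0.79 ± 0.35 did not pass (edgeR adjusted p = 0.0875). The brain CD11c libraries split into a high pair, replicates 1 and 2, and a pair, replicates 3 and 4, within the range of ischemic microglia. With the high pair alone the difference was 1.32 (edgeR adjusted p = 0.00361), and with the other pair alone -0.07 (0.901).

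Prdx1 (ENSMUSG00000028691, chr4:116685544-116700822, plus strand) encodes a cytosolic peroxiredoxin, a peroxidase that thioredoxin reduces. It had 393, 370, 172 and 258 CPM in brain CD11c cells, 162, 131, 160 and 188 CPM in ischemic microglia, 155, 148, 139 and 179 CPM in spleen CD11c cells and 82.0, 75.7, 74.1 and 80.4 CPM in control microglia. Control microglia were below every other library. Brain CD11c cells exceeded ischemic microglia by 0.90 ± 0.19 (edgeR adjusted p = 0.0015) and spleen CD11c cells by 0.94 ± 0.19 (edgeR adjusted p = 0.000462), in both cases with replicate 3 inside the range of the other group. Ischemic exceeded control microglia by 1.04 ± 0.19 (edgeR adjusted p = 0.000681). Ischemic microglia and spleen CD11c cells, the middle neighbours, were not called apart (log2 0.04, 95% interval -0.33 to 0.42). With brain CD11c replicates 3 and 4 alone, the differences of brain CD11c cells were 0.44 against ischemic microglia and 0.44 against spleen CD11c cells (edgeR adjusted p = 0.0361 and 0.0255).

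Of the glutathione synthesis pair, neither member was called higher in any of the 3 comparisons, and Gclc was called lower in 2. Gclc (ENSMUSG00000032350, chr9:77754535-77794485, plus strand) encodes the catalytic subunit of glutamate-cysteine ligase, the first enzyme of glutathione synthesis. Its levels were 62.1, 68.3, 51.9 and 57.6 CPM in brain CD11c cells, 82.3, 74.6, 73.2 and 76.1 CPM in ischemic microglia, 49.4, 55.7, 65.0 and 47.9 CPM in spleen CD11c cells and 107, 97.8, 91.0 and 85.8 CPM in control microglia. Control microglia were highest and were separate from ischemic microglia, which in turn were separate from brain CD11c cells. Gclc was lower in ischemic than in control microglia (log2 -0.32 ± 0.11, edgeR adjusted p = 0.0328) and lower in brain CD11c cells than in ischemic microglia (log2 -0.35 ± 0.11, edgeR adjusted p = 0.0178). Brain and spleen CD11c cells overlapped (log2 0.14 ± 0.11, edgeR adjusted p = 0.284). With library totals in place of TMM the second difference was -0.25 (edgeR adjusted p = 0.114), and leaving out brain CD11c replicate 3 or ischemic microglia replicate 1 also ended that call (0.0526 and 0.0689). The ischemic-control call ended without ischemic microglia replicate 2, 3 or 4 (edgeR adjusted p = 0.0591, 0.0665 and 0.0559) or control replicate 1 or 2 (0.0792 and 0.0619).

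Gclm (ENSMUSG00000028124, chr3:122245557-122270732, plus strand) encodes the modifier subunit of the same ligase, which raises its efficiency. It had 35.2, 32.1, 14.5 and 17.8 CPM in brain CD11c cells, 17.9, 15.7, 18.2 and 19.1 CPM in ischemic microglia, 36.4, 24.3, 21.4 and 34.3 CPM in spleen CD11c cells and 20.4, 22.4, 23.1 and 22.5 CPM in control microglia. Brain CD11c cells overlapped every other group, again with replicates 1 and 2 above 3 and 4. None of the 3 comparisons was called for Gclm; ischemic microglia lay below control microglia in every library (log2 -0.32 ± 0.24, edgeR adjusted p = 0.311), and the fit on those 8 libraries alone gave -0.28 with an edgeR adjusted p of 0.0212. Against ischemic microglia, brain CD11c replicates 1 and 2 alone were higher by 0.93 (edgeR adjusted p = 0.000515), and replicates 3 and 4 alone gave -0.12 (0.649). Without brain CD11c replicate 3 the difference from ischemic microglia was 0.68 (edgeR adjusted p = 0.0177). Against spleen CD11c cells the difference was -0.22 ± 0.23 with all 4 brain libraries (edgeR adjusted p = 0.42). With replicates 1 and 2 alone it was 0.215 (0.289), and with replicates 3 and 4 alone -0.88 (0.000958). Against control microglia, replicates 1 and 2 alone were higher by 0.607 (edgeR adjusted p = 0.00667), and replicates 3 and 4 alone gave -0.454 (0.0515). Within a library, the CPM of Gclc was 1.76 to 3.57 times that of Gclm in brain CD11c cells and 3.99 to 4.75 times in ischemic microglia, without overlap, and 1.36 to 3.04 times in spleen CD11c cells and 3.81 to 5.23 times in control microglia, also without overlap. A stretch of 287 bases of Gclm matches Ppia at 97.9% identity, so some reads could have been placed on either gene; Ppia's counts over all libraries were 129.0% of those of Gclm.

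Nqo1 (ENSMUSG00000003849, chr8:107388225-107403206, minus strand) encodes a quinone reductase and is widely used as an NRF2 target, but it was the lowest member per kilobase of exon in every group, with group means of 0.235 to 0.805 CPM per kb. It had 1.03, 0.841, 1.05 and 1.17 CPM in brain CD11c cells, 0.426, 0.478, 0.288 and 0.371 CPM in ischemic microglia, 1.94, 0.722, 0.227 and 2.11 CPM in spleen CD11c cells and 0.175, 0.41, 0.473 and 0.404 CPM in control microglia. These rest on 30 to 38 counts per brain CD11c library, 11 to 18 per ischemic microglia library, 11 to 91 per spleen library and 7 to 23 per control microglia library. Every brain CD11c library was above every microglia library. The difference from ischemic microglia was 1.38 ± 0.53, with an edgeR adjusted p of 0.04998, and leaving out any 1 of the 8 libraries ended the call (edgeR adjusted p 0.0541 to 0.117, log2 1.28 to 1.51). Ischemic and control microglia overlapped (log2 0.09 ± 0.55, 95% interval -0.98 to 1.16). The spleen libraries spread from 0.227 to 2.11 CPM, with replicates 1 and 4 above 2 and 3; with replicates 2 and 3 alone the difference of brain from spleen was 1.16 (edgeR adjusted p = 0.0821) instead of -0.28 with all 4.

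Sod2 (ENSMUSG00000006818, chr17:13006846-13040063, plus strand) encodes the mitochondrial superoxide dismutase and is known as a target of NF-kB as well as of NRF2. Its levels were 84.2, 76.4, 54.8 and 55.7 CPM in brain CD11c cells, 55.7, 82.4, 54.2 and 73.0 CPM in ischemic microglia, 32.8, 29.3, 28.9 and 33.5 CPM in spleen CD11c cells and 32.6, 25.3, 29.2 and 31.7 CPM in control microglia. The 8 libraries of the ischemic hemisphere were all above the 8 others. Ischemic exceeded control microglia 2.23-fold (log2 1.16 ± 0.16, edgeR adjusted p = 4.95e-05), and brain exceeded spleen CD11c cells 2.18-fold (log2 1.12 ± 0.16, edgeR adjusted p = 1.18e-05). Neither neighbour pair was called apart: brain CD11c cells and ischemic microglia differed by 0.03 ± 0.16 (95% interval -0.27 to 0.34), and spleen CD11c cells and control microglia by 0.07 ± 0.16 (95% interval -0.24 to 0.38). Annotated exons of Sod2 share 3110 bases at 98.2% identity with Rps6ka2, whose counts were 12.8% of those of Sod2, so a part of these reads is uncertain.

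The metallothionein genes Mt2 (ENSMUSG00000031762, chr8:94172664-94173568) and Mt1 (ENSMUSG00000031765, chr8:94179082-94180327) are neighbours on the plus strand, 5513 bases apart. Mt1 had 118, 101, 120 and 125 CPM in brain CD11c cells, 69.5, 111, 68.7 and 65.3 CPM in ischemic microglia, 13.2, 6.14, 6.72 and 13.5 CPM in spleen CD11c cells and 44.0, 44.1, 47.0 and 64.8 CPM in control microglia. It was graded: brain CD11c cells and ischemic microglia overlapped only through ischemic replicate 2, all ischemic microglia were above control microglia, and spleen was far below. Brain exceeded spleen CD11c cells 11.8-fold (log2 3.56 ± 0.27, edgeR adjusted p = 1.16e-08). Brain CD11c cells exceeded control microglia by 1.22 ± 0.24 (edgeR adjusted p = 0.000455), but the step to ischemic microglia, 0.56 ± 0.24, did not pass (edgeR adjusted p = 0.0766). Without ischemic microglia replicate 2 that step was 0.79 (edgeR adjusted p = 0.0176), and the fit on those 8 libraries alone gave 0.59 (edgeR adjusted p = 0.0266). Ischemic exceeded control microglia by 0.66 ± 0.24 (edgeR adjusted p = 0.0442), and by 0.43 without ischemic microglia replicate 2 (0.18); the call also ended without ischemic replicate 1, 3 or 4 (0.0581, 0.0548 and 0.0522) or control replicate 1, 2 or 3 (0.108, 0.118 and 0.106).

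Mt2 had 18.7, 10.6, 11.3 and 13.9 CPM in brain CD11c cells, 11.5, 26.7, 12.1 and 11.6 CPM in ischemic microglia, 5.13, 2.15, 0.433 and 8.18 CPM in spleen CD11c cells and 5.55, 3.87, 5.16 and 7.48 CPM in control microglia. As for Mt1, ischemic microglia replicate 2 stood above its group and spleen replicates 1 and 4 stood above 2 and 3. Ischemic exceeded control microglia by 1.49 ± 0.56 (edgeR adjusted p = 0.049), and leaving out any 1 of these 8 libraries ended the call (edgeR adjusted p 0.0608 to 0.171, log2 1.08 to 1.65). Brain exceeded spleen CD11c cells by 1.78 ± 0.57 (edgeR adjusted p = 0.012) and by 3.45 against spleen replicates 2 and 3 alone. With brain CD11c replicates 3 and 4 alone the difference was 1.63 and no longer passed (edgeR adjusted p = 0.0606). Brain CD11c cells and ischemic microglia were not called apart (log2 -0.19, 95% interval -1.25 to 0.88). Within a library Mt1 was 6.33 to 10.7 times Mt2 in brain CD11c cells, 4.17 to 6.06 times in ischemic microglia, 1.65 to 15.5 times in spleen CD11c cells and 7.92 to 11.4 times in control microglia; ischemic microglia did not overlap brain CD11c cells or control microglia in this ratio. Spleen replicates 1 and 4, the higher pair for both genes, also held the most erythroid and neutrophil marker transcripts: 7 erythroid markers summed to 3564, 95.1, 53.0 and 487 CPM and 8 neutrophil markers to 452, 218, 259 and 927 CPM in spleen replicates 1 to 4. The 6 red pulp macrophage markers had the same order, with 5350, 3672, 4226 and 5362 CPM summed in these libraries. Astrocyte marker sums were also highest in spleen replicates 1 and 4, and the sums of the other marker lists did not have this order. The part of any of these markers in the spleen levels was not tested. The third metallothionein, Mt3, known from neurons and astrocytes, was at 0.128 to 4.26 CPM in group means. Astrocyte markers summed to 48.6 to 81.3 CPM in brain CD11c cells and 169 to 197 CPM in ischemic microglia. They summed to 36.7 to 62.3 CPM in spleen CD11c cells and 206 to 226 CPM in control microglia. The part of astrocyte transcripts in the metallothionein levels was not tested.

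**Figure D3:**
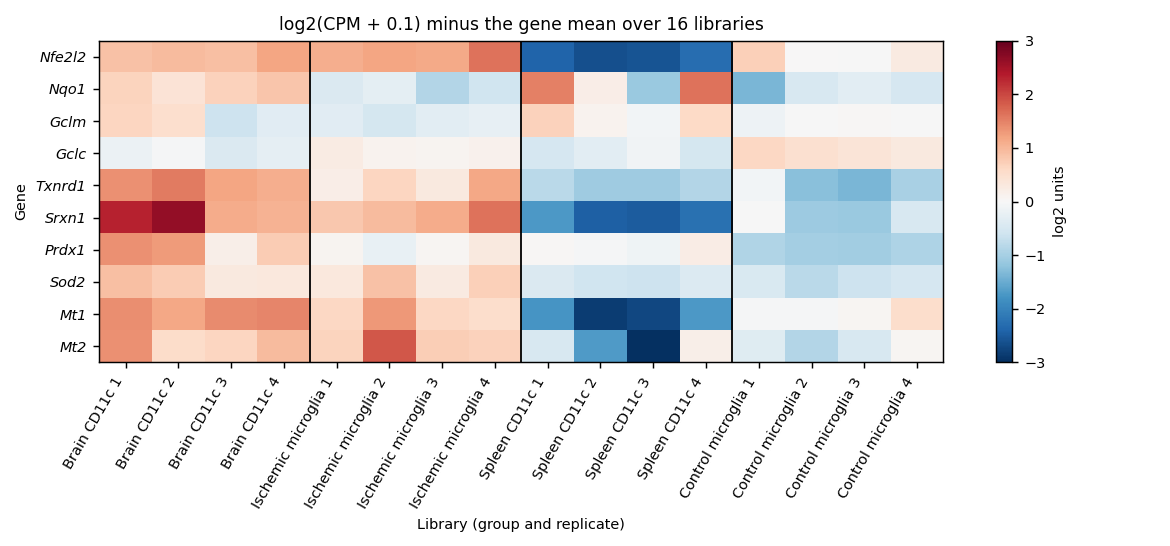
Log2(CPM + 0.1) of each gene minus its mean over 16 libraries (colour, log2 units), with genes in rows and libraries in columns by group. Mt1, Srxn1 and Nfe2l2 are low in spleen CD11c cells, Gclc is highest in control microglia, and ischemic microglia 2 stands out for Mt1 and Mt2.

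Among 12 regulators of NRF2, 2 were higher and 4 lower in brain CD11c cells against ischemic microglia, 3 higher and 1 lower in ischemic against control microglia, and 8 higher and 2 lower in brain against spleen CD11c cells. In these 3 comparisons 38.8%, 35.7% and 64.2% of all genes tested were called. The shares higher were 19.7%, 17.7% and 31.2%, and the shares lower 19.1%, 18.0% and 33.0%. Bach1, the repressor that competes for the same elements, had its group means in the same order as Nfe2l2: it averaged 322 ± 47.1 CPM in brain CD11c cells, 477 ± 79.1 in ischemic microglia, 58.9 ± 5.81 in spleen CD11c cells and 247 ± 77.7 in control microglia (SD, n = 4). It was higher in ischemic than control microglia (log2 0.95 ± 0.18, edgeR adjusted p = 0.000707) and lower in brain CD11c cells than in ischemic microglia (log2 -0.57 ± 0.18, edgeR adjusted p = 0.0189). Sqstm1, the autophagy adaptor p62 that binds KEAP1, averaged 784 ± 34.8 CPM in brain CD11c cells, 1130 ± 128 in ischemic microglia, 186 ± 6.75 in spleen CD11c cells and 561 ± 199 in control microglia, and passed in the same directions. Maff, a small MAF partner, averaged 175 ± 9.05 CPM in ischemic microglia and 66.1 ± 47.4 CPM in control microglia (log2 1.40 ± 0.36, edgeR adjusted p = 0.00681). Keap1 itself had group means of 36.4 to 50.5 CPM and was lower in brain than in spleen CD11c cells (log2 -0.47 ± 0.11, edgeR adjusted p = 0.00159).

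Of 20 other NRF2 target genes, 12 were higher and 1 lower in brain CD11c cells against ischemic microglia, with a median log2 fold change of 0.61. In ischemic against control microglia 5 were higher and 3 lower (median 0.09), and in brain against spleen CD11c cells 10 were higher and 6 lower (median 0.40). Of all genes tested, 38.8%, 35.7% and 64.2% were called in these 3 comparisons, with 19.7%, 17.7% and 31.2% higher and 19.1%, 18.0% and 33.0% lower. Glutathione reductase, Gsr, averaged 95.9 ± 12.4 CPM in brain CD11c cells and 19.9 ± 2.17 CPM in ischemic microglia (log2 2.27 ± 0.15, edgeR adjusted p = 6.43e-09). Slc7a11, the cystine importer that supplies glutathione synthesis, averaged 54.2 ± 28.7 CPM in brain CD11c cells and 11.4 ± 6.67 CPM in ischemic microglia (log2 2.25 ± 0.42, edgeR adjusted p = 0.000541). Txn1, thioredoxin, averaged 153 ± 44.6 CPM in brain CD11c cells, 51.8 ± 3.05 in ischemic microglia and 25.4 ± 3.24 in control microglia (SD, n = 4), and was called in both steps. Against ischemic microglia the exception was Ephx1, an epoxide hydrolase, at 8.08 ± 3.06 CPM in brain CD11c cells and 22.8 ± 2.07 CPM in ischemic microglia. It averaged 63.9 ± 6.77 CPM in spleen CD11c cells, against which 6 of the 20 targets were lower in brain CD11c cells. Hmox1, heme oxygenase, averaged 281 ± 176 CPM in brain CD11c cells, 292 ± 82.1 in ischemic microglia, 1030 ± 234 in spleen CD11c cells and 278 ± 56.9 in control microglia, and it was lower in brain than in spleen CD11c cells (log2 -1.88 ± 0.37, edgeR adjusted p = 0.000409). Hmox1 is also counted among the red pulp macrophage markers, which summed to 258 to 648 CPM in brain CD11c cells against 3670 to 5360 CPM in spleen CD11c cells; their part in this difference was not tested.

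**Figure D4:**
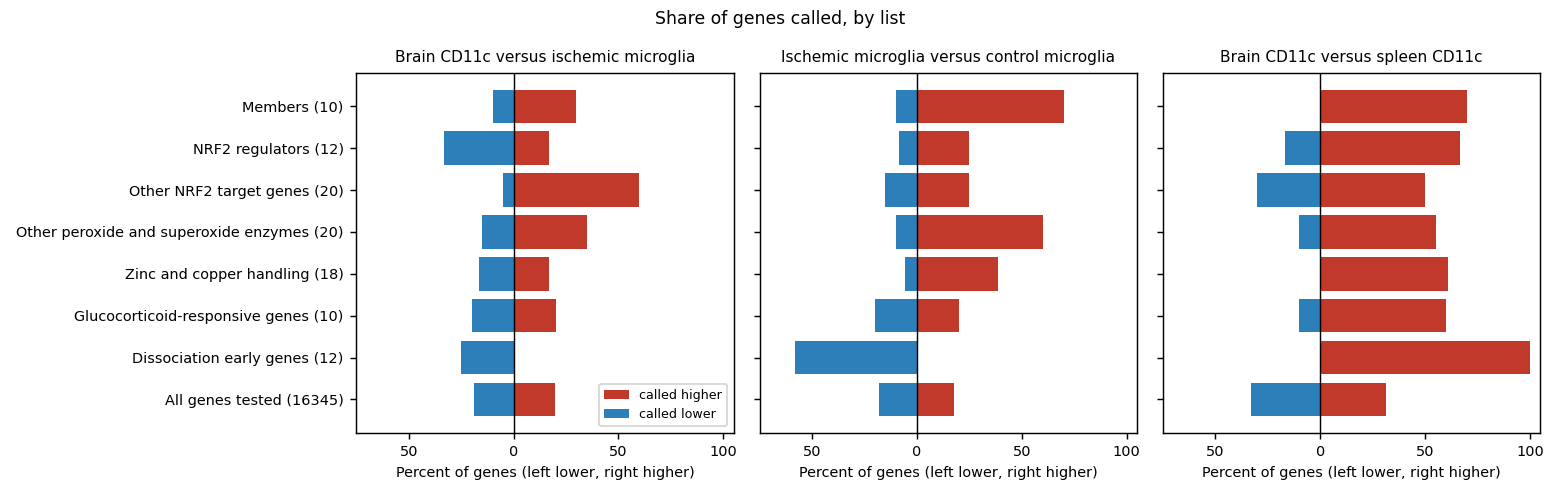
Percent of genes called higher (red, right of 0) and lower (blue, left of 0) in each comparison, for the 10 members, 6 lists and all 16345 genes tested. In ischemic against control microglia 7 of 10 members and 12 of 20 peroxide and superoxide enzymes were higher, whereas 5 of 20 other NRF2 targets and 17.7% of all genes were.

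Other enzymes that remove peroxide and superoxide, 20 in all, gave 7 higher and 3 lower in brain CD11c cells against ischemic microglia, 12 higher and 2 lower in ischemic against control microglia, and 11 higher and 2 lower in brain against spleen CD11c cells. The shares of all genes called in these 3 comparisons were 38.8%, 35.7% and 64.2%, with 19.7%, 17.7% and 31.2% higher and 19.1%, 18.0% and 33.0% lower. Prdx6, a peroxiredoxin that uses glutathione, averaged 213 ± 36.4 CPM in brain CD11c cells, 51.6 ± 1.45 in ischemic microglia and 77.6 ± 9.39 in spleen CD11c cells. Msrb1, a methionine sulfoxide reductase, averaged 159 ± 44.6 CPM in brain CD11c cells, 29.3 ± 6.9 in ischemic microglia and 40.1 ± 6.34 in spleen CD11c cells (SD, n = 4). Brain CD11c cells were called higher for both genes in both comparisons. In microglia the largest increase among those at 20 CPM or more was in Gpx3, the secreted glutathione peroxidase, at 62.2 ± 22.3 CPM in ischemic and 16.8 ± 6.83 CPM in control microglia (log2 1.89 ± 0.40, edgeR adjusted p = 0.00192), followed by Prdx4, the peroxiredoxin of the endoplasmic reticulum, at 83.4 ± 7.15 CPM in ischemic and 26.8 ± 3.89 CPM in control microglia (log2 1.64 ± 0.25, edgeR adjusted p = 0.000172).

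Zinc and copper handling genes, 18 in all, gave 3 higher and 3 lower in brain CD11c cells against ischemic microglia, 7 higher and 1 lower in ischemic against control microglia, and 11 higher and 0 lower in brain against spleen CD11c cells. All genes tested were called at shares of 38.8%, 35.7% and 64.2% in these 3 comparisons, with 19.7%, 17.7% and 31.2% higher and 19.1%, 18.0% and 33.0% lower. Slc39a14, a zinc and iron importer, averaged 87.7 ± 9.34 CPM in ischemic microglia and 26.5 ± 1.36 CPM in control microglia (log2 1.73 ± 0.31, edgeR adjusted p = 0.000579), and 123 ± 67.4 CPM in brain CD11c cells against 16.2 ± 2.65 CPM in spleen CD11c cells (log2 2.93 ± 0.33, edgeR adjusted p = 1.3e-06). Slc31a1, the copper importer, averaged 187 ± 34.0 CPM in ischemic and 68.7 ± 8.37 CPM in control microglia (log2 1.45 ± 0.16, edgeR adjusted p = 8e-06). Mtf1, the zinc-sensing factor, had group means of 28.8 to 33.3 CPM, and none of the 3 comparisons was called for it (edgeR adjusted p = 0.583, 0.863 and 0.184). Of 10 glucocorticoid-responsive genes, 2 were higher and 2 lower in brain CD11c cells against ischemic microglia, 2 higher and 2 lower in ischemic against control microglia, and 6 higher and 1 lower in brain against spleen CD11c cells. The shares of all genes beside these counts are again 38.8%, 35.7% and 64.2%, divided by direction as for the zinc and copper handling genes. Of the 12 dissociation-induced early genes, 7 were lower and 0 higher in ischemic than in control microglia, where 35.7% of all genes were called, 18.0% lower and 17.7% higher. They summed to 6640 to 11600 CPM in ischemic and 16600 to 19200 CPM in control microglia. Their part in the levels of the members was not tested.

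The genes most like each member over the 16 libraries were found by the root mean square difference of centred log2 CPM among 7320 genes. Nfe2l2 was nearest to Rab20 (0.21), Tgif1 (0.24) and Ets2 (0.25), where the median over all genes was 1.5. Mt1 was nearest to Dusp3 (0.32), Litaf (0.38) and Ptp4a1 (0.40), with a median of 1.43. Srxn1 was nearest to Fam129b, Lmna and Zfand2a (0.35 to 0.43), Txnrd1 to Mir22hg, Tnfaip2 and Gm15832 (0.25 to 0.30), Prdx1 to Ciao2a, Rps27l and Cox7b (0.16 to 0.19), and Sod2 to Ralgds and Naa50 (0.17 and 0.18). Gclc followed Ncbp3, Cul1 and Casd1 (0.12 to 0.13) and Gclm followed Clec4a3, Umps and Wdr36 (0.19 to 0.22). For Nqo1 and Mt2, the members with the fewest counts, the nearest genes stood 0.59 and 0.79 away, Ybx3 and Ccdc86. Among the members themselves the closest pairs were Nfe2l2 with Mt1 (0.49), Prdx1 with Sod2 (0.50) and Txnrd1 with Sod2 (0.52). These distances describe the 16 libraries, which share groups, and carry no test.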

How the data were processed

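Polyadenylated RNA of 16 libraries of sorted cells was sequenced with a stranded kit, per the labels' protocols; tissue was digested with enzymes and passed over Percoll, and cells were sorted by reporter fluorescence without staining. Values are raw counts of reads per gene as deposited by the authors. Reads were checked with FastQC 0.11.5 and aligned with STAR 2.5.3a to GRCm38, per the submitters' processing notes. No source names the counting program, its strand setting or the annotation release, so reads of a gene and its antisense partner may not be separated; the antisense genes that share exon bases with Gclm and Mt2 had 52 and 3 counts in all. Of 50600 gene IDs, 50376 matched GENCODE M21.

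Depth was 31.57 to 48.25 (units of 1e6 counts per library). Counts were fitted with edgeR 4.0.16 (R 4.3.3; quasi-likelihood, robust, TMM, filterByExpr) on all 16 libraries with a mean per group, and p-values are two-sided and adjusted by Benjamini-Hochberg over 16345 genes, with a threshold of 0.05. Errors beside log2 fold changes are SE, and 95% intervals span 1.96 SE on each side. The fit was tested on simulated data. Near-identical stretches were sought with blastn (at least 90% identity over 250 bases) in GENCODE transcripts. The members and the lists were chosen with earlier results of these data known. All 10 members are named; from each list, up to 3 called genes with the largest change in the commoner direction and 1 in the other, at 20 CPM or more; for likeness, 3 genes per member, of which 1 is not reported here; and Bach1, Keap1, Hmox1, Mt3 and Mtf1 by level. Any further gene named was chosen after its values were seen. Alternatives were other scalings, no filter, DESeq2 1.42.0, limma-voom (3.58.1), fewer libraries and each library left out.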

Additional observations from a re-analysis of the deposited data

Results flagged for a closer look

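Of 40 sets of 4 libraries (10 genes in 4 groups), 4 held a library whose gap to its nearest neighbour was too large a share of the range by Dixon's test at the 95% level; chance flags about 1 in 20. Mt1 in ischemic microglia replicate 2 was 111 CPM where the other 3 were 65.3 to 69.5, and Mt2 in the same library was 26.7 CPM where the others were 11.5 to 12.1. Nfe2l2 in ischemic microglia replicate 4 was 1280 CPM, with the others at 876 to 935. Mt1 in control microglia replicate 4 was 64.8 CPM, with the others at 44.0 to 47.0. The ischemic microglia calls for Mt1 and Mt2 without replicate 2 are given with those genes.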

How the results depend on the processing

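Groups in the 3 main comparisons share at most 1 number in their titles, so none could be paired. Brain CD11c replicate 1 and spleen CD11c replicate 4 share a title number and the mouse line. The labels do not say whether they came from the same mouse. Ischemic microglia and spleen CD11c cells share 3 numbers but come from different mouse lines. The deviations of their same-numbered libraries correlated at -0.05 to -0.02, but 3 libraries per group are too few to settle what the numbers mark. With the number as a replicate block on those 6 libraries, chosen after seeing the data, 7 members were higher and 1 was lower, against 6 and 1 without the block on those libraries and 7 and 2 with all libraries; Nqo1 was the call lost under the block (-0.89, edgeR adjusted p = 0.219). Library totals in place of TMM moved the median of all genes to 0.10 for brain CD11c cells against ischemic microglia, -0.20 for ischemic against control microglia and -0.30 for brain against spleen CD11c cells. The causes of the changes given here were not tested.

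Brain CD11c cells against ischemic microglia: members higher were 3, but 6 with library totals, 4 with the 8 libraries compared alone, 1 with DESeq2's size factors, 1 without the filter, 1 with brain CD11c replicates 3 and 4 alone, and 1 to 3 with 1 library left out; members lower were 1, but 0 with library totals, 0 with brain CD11c replicates 1 and 2 alone, and 0 to 1 with 1 library left out. Ischemic against control microglia: members lower were 1, but 0 without the filter, 2 with the 8 libraries compared alone, and 0 to 1 with 1 library left out; members higher were 5 to 7 under all alternatives. Brain against spleen CD11c cells: members lower were 0, but 1 with library totals and 1 with brain CD11c replicates 3 and 4 alone; members higher were 6 to 7 under all alternatives. 

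None of the differences that changed sign was called under the alternative. With library totals these were Nqo1 in ischemic against control microglia (-0.056), Gclc in brain against spleen CD11c cells (-0.14), Prdx1 in ischemic microglia against spleen CD11c cells (-0.33) and Txnrd1 in spleen CD11c cells against control microglia (0.10). Without the filter they were Sod2 in brain CD11c cells against ischemic microglia (-0.031) and in spleen CD11c cells against control microglia (-0.003, and -0.002 with those 8 libraries alone); with limma-voom, Nqo1 in brain against spleen CD11c cells (0.22). With brain CD11c replicates 1 and 2 alone it was Gclm against spleen CD11c cells (0.22). With replicates 3 and 4 alone they were Gclm (-0.12), Srxn1 (-0.068) and Sod2 (-0.25) against ischemic microglia, Gclc against spleen CD11c cells (-0.028) and Gclm against control microglia (-0.45). With spleen replicates 2 and 3 alone, chosen after seeing the data, they were Nqo1 (1.16) and Gclm (0.19). With 1 library left out, ranges that crossed 0 were -0.073 to 0.17 for Sod2 and -0.36 to 0.23 for Mt2 in brain CD11c cells against ischemic microglia, -0.15 to 0.23 for Nqo1 in ischemic against control microglia, -0.64 to 0.091 for Nqo1 in brain against spleen CD11c cells, -0.037 to 0.36 for Gclm in brain CD11c cells against control microglia, -0.093 to 0.12 for Prdx1 in ischemic microglia against spleen CD11c cells, and -0.25 to 0.28 for Txnrd1 in spleen CD11c cells against control microglia. Nfe2l2, Txnrd1, Srxn1, Prdx1 and Sod2 in ischemic against control microglia, and those genes and Mt1 in brain against spleen CD11c cells, passed under every alternative run. Nqo1 and Mt2 rest on few counts.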

Other observations

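Ischemic microglia replicate 2 was the highest of its group in further genes, which were picked after their values were seen. Fkbp5, a chaperone partner of steroid receptors that glucocorticoids induce, had 128, 565, 132 and 391 CPM in ischemic microglia replicates 1 to 4, against 77.4 to 90.6 CPM in control microglia; replicate 4 was also above replicates 1 and 3. Ddit4, an inhibitor of mTORC1 signalling that stress and glucocorticoids induce, had 12.1, 66.1, 15.0 and 11.0 CPM in ischemic microglia, against 9.9 to 18.4 CPM in control microglia. Osgin1, an NRF2 target, had 14.8, 39.9, 18.4 and 14.7 CPM in ischemic microglia, against 10.5 to 29.9 CPM in control microglia. The glucocorticoid-responsive Tsc22d3 had values closer together, with 146, 174, 96.7 and 131 CPM in ischemic microglia. Of the rest of the glucocorticoid-responsive list, Zbtb16, Klf9, Dusp1 and Cebpd were also highest in ischemic replicate 2. Sgk1 was highest in replicate 1 (1450 CPM) and Per1 in replicate 3 (411 CPM), and Nr3c1 was lowest in replicate 2 (148 CPM). The share of all genes that were highest in replicate 2 is not given here. Microglia markers summed to 18300 CPM in ischemic replicate 2 and 24540 to 25700 CPM in the other 3. The part of any of these in the metallothionein levels was not tested.

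In brain CD11c cells, the split of replicates 1 and 2 from 3 and 4 seen for Srxn1, Gclm and Prdx1 also appeared in other NRF2 targets and in other lists. Of 20 other NRF2 targets, 13 had replicates 1 and 2 both above 3 and 4, 2 had both below and 5 had neither order; over all 16345 genes tested these counts were 4970, 4258 and 7117. They were 11, 1 and 6 for the 18 zinc and copper handling genes and 11, 5 and 4 for the 20 other peroxide and superoxide enzymes. For the 12 NRF2 regulators they were 4, 3 and 5. The 10 glucocorticoid-responsive genes gave 1, 5 and 4, and the 12 dissociation-induced early genes 0, 10 and 2. Hmox1 had 399, 463, 123 and 138 CPM in brain CD11c replicates 1 to 4, Slc7a11 had 78.4, 78.5, 37.6 and 22.2 CPM, Txn1 had 194, 185, 99.7 and 132 CPM, and G6pdx, which makes NADPH, had 121, 136, 89.9 and 81.9 CPM. Gsr, at 92.6, 109, 80.2 and 102 CPM, and Mt1 did not split in this way. The 2 targets that ran the other way were Osgin1, with 16.7, 26.2, 27.8 and 35.1 CPM, and Ephx1, with 4.80, 6.98, 8.47 and 12.1 CPM. Of 11 lists of cell type markers, 4 had summed levels higher in both replicates 1 and 2, 6 lower in both and 1 neither. Dendritic cell markers were lower, with 880, 1304, 1897 and 2011 CPM summed in the same libraries, as were oligodendrocyte markers, with 235, 215, 420 and 472 CPM. The sum of the 6 red pulp macrophage markers, a list that includes Hmox1, was higher, with 549, 648, 258 and 274 CPM. By gene, 2 of them had replicates 1 and 2 both above 3 and 4, 2 had both below and 2 had neither order. The sum of the 8 neutrophil markers was also higher, with 27.1, 20.9, 8.30 and 7.15 CPM. By gene, however, 1 was above, 1 was below and 6 had neither order. The part of these markers in the split was not tested.

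In control microglia, replicate 1 was the highest of its group for Nfe2l2 (681 CPM), Txnrd1 (132 CPM), Srxn1 (19.9 CPM), Gclc (107 CPM), Prdx1 (82.0 CPM) and Sod2 (32.6 CPM). It was the lowest for Nqo1 (0.175 CPM), Gclm (20.4 CPM) and Mt1 (44.0 CPM), and Mt2 lay between. Among the NRF2 regulators it was highest for Maff (134 CPM, where the others had 33.3 to 62.2), Bach1 (364 CPM, others 207 to 209), Sqstm1 (849 CPM, others 411 to 537), Mafk, Mafg, Cul3, Bach2, Btrc and Gsk3b. Keap1, Rbx1 and Nfe2l1 were lowest in it. Its title carries no number, unlike those of the other control libraries.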
